A study of Mus musculus with 6 samples.

Results

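The 40 genes described here form the cell cycle and DNA replication set, of 54532 genes listed for mouse femur. Members were chosen by gene symbol from a list of known cell cycle genes, and all 40 symbols were found once in the gene table. They were sorted into 22 mitosis genes, with Ccna2, a cyclin of S and G2 phases, placed among these. The other 18 act in DNA replication or in the step from G1 to S phase. Mouse femurs were ground to powder and profiled by RNA sequencing, 3 samples in each of 2 groups. Animals of the first group received zingerone (Zin), a phenol found in ginger, orally for 8 weeks at 100 mg/kg/day, and those of the second (OVX) received saline. OVX stands for ovariectomy, a surgical model of bone loss after the menopause, and all samples are labelled wild type (WT). The values of the 3 OVX libraries could be tied to their labels and are described here as libraries 1, 2 and 3. The Zin libraries were not analysed here, so no effect of zingerone on these genes was tested.

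The label of the material was uneven. The titles give 8, 9 and 10 weeks to OVX replicates 1, 2 and 3 without saying what the weeks count, and the characteristics name RAW264.7, a macrophage-like cell line, as osteoclast precursors beside bone as the tissue. The 3 libraries held 17017907, 16964740 and 16581579 reads on listed genes. Marker transcripts of marrow, bone and muscle were present in every library, and those of cartilage mainly in library 2. This mix goes against the cell line named in the characteristics and fits the femur named in the extraction text. Genes of osteoblasts, the bone-forming cells, summed to 2554, 5822 and 1522 FPKM in libraries 1, 2 and 3. Genes of erythroblasts, the dividing precursors of red cells, summed to 2180, 2297 and 2459 FPKM. FPKM count reads per kilobase of gene length at a common library depth. Library 2 stood apart in cartilage and muscle content. Cartilage genes summed to 659 FPKM there against 24.7 and 54.3 FPKM in libraries 1 and 3, and muscle genes to 148 FPKM against 1688 and 1008 FPKM. Osteoclast genes were instead lowest in library 1, with sums of 408, 1121 and 845 FPKM in libraries 1, 2 and 3.

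A dividing cell copies its DNA once in S phase and separates the copies in mitosis, and most of the genes for each step are transcribed only when they are needed. Replication genes are switched on late in G1 when E2F factors are released from the retinoblastoma protein. Mitosis genes come later, under complexes that act through CCAAT boxes and through the cell cycle genes homology region (CHR). In adult bone the dividing cells are mainly blood precursors of the marrow, so bulk RNA of a femur reports on erythroid, myeloid and lymphoid precursors together.

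The promoters of mitosis and replication genes carried different letters. RefSeq (GRCm38.p6) listed promoters, from 250 bases before to 50 bases after the start, for 34 of the 40 members, with 36 promoters in all. Ccna2, Ccne2, Aurkb, Tpx2, Mcm4 and Gins2 were not among them. Below, 190 bases are shown 5′ to 3′ on the gene's strand, from position -170 to position 20, where position 1 is the start and there is no position 0. Capitals mark E2F letters in the replication genes Mcm5, Mcm6 and Cdc6, CHR letters and CCAAT in the mitosis genes Ccnb2 and Cdc20, and all of these in Cdk1. Mcm5, Mcm6 and Cdc6 are shown as replication promoters with E2F letters, Ccnb2 and Cdc20 as mitosis promoters with CHR and CCAAT, and Cdk1 as the mitosis promoter that held every kind.
Ccnb2 (chr9:70421535-70421724, minus strand): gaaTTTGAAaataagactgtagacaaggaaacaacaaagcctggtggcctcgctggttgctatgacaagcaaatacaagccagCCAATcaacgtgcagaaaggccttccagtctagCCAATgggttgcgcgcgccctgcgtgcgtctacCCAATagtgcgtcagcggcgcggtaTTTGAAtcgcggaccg
Cdc20 (chr4:118437324-118437513, minus strand): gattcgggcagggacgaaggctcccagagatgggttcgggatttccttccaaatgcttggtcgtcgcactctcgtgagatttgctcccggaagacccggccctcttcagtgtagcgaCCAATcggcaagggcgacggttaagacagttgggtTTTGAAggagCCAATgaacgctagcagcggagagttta
Cdk1 (chr10:69352893-69353082, minus strand): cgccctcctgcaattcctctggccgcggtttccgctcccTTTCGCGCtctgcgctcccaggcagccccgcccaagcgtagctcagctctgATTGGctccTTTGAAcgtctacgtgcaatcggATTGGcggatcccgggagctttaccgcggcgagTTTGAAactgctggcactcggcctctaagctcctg
Mcm5 (chr8:75109339-75109528, plus strand): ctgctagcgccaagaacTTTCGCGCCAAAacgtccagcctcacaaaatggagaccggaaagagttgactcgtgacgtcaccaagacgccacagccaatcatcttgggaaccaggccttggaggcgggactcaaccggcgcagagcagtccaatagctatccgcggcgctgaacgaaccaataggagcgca
Mcm6 (chr1:128359686-128359875, minus strand): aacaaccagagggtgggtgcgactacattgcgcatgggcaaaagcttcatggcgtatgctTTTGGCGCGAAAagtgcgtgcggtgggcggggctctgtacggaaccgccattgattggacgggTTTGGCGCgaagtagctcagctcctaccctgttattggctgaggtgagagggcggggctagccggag
Cdc6 (chr11:98907981-98908170, plus strand): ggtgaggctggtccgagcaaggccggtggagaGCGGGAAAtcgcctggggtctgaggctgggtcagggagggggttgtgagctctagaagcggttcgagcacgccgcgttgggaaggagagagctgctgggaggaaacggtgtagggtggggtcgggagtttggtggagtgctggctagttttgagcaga

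The E2F letters searched were TTTCCCGC, TTTCGCGC, TTTGCCGC and TTTGGCGC, the CHR letters were TTTGAA and TTCGAA, and the third motif was CCAAT, each on both strands. A match describes letters and not a bound site. CHR letters occurred in 16 of 20 mitosis promoters (80.0%) and in 2 of 16 replication promoters (12.5%), against 19.2% of all 32851 listed promoters of the same length. E2F letters showed the opposite order, with 1 of 20 mitosis promoters (5.0%) and 7 of 16 replication promoters (43.8%), against 2.26% of all promoters. The single mitosis gene with E2F letters was Cdk1, whose sequence above has TTTCGCGC upstream of the CHR and CCAAT letters shown, while a further CCAAT match at position -208 lies outside the stretch shown. CCAAT was common in both classes, in 18 of 20 mitosis and 10 of 16 replication promoters, against 37.4% of all. These shares are descriptions of sequence and were not tested.

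CHR letters and CCAAT stood together in 80.0% of mitosis promoters, 12.5% of replication promoters and 7.52% of all promoters. In the sequences above, Ccnb2 and Cdc20 each had CHR letters close to the start with CCAAT upstream of them, beside a further distant CHR match in Ccnb2 and a CCAAT nearer the start in Cdc20. Over all mitosis members, the 23 CHR matches had a median position of -18 and the 36 CCAAT matches a median position of -67.5. At least 2 CCAAT copies were found in 55.0% of mitosis promoters, as in the 3 copies of Ccnb2, and in 31.2% of replication promoters, against 11.7% of all. In Mcm5 and Mcm6, E2F matches on opposite strands overlap, which gives the long runs of capitals in those sequences. The letters TTCGAA read the same on both strands and were counted once per place.

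Genes outside the set that act in the same steps carried the letters in the same order. Among 60 promoters of 53 other mitosis genes, 65.0% held CHR letters and 10.0% held E2F letters. Among 37 promoters of 31 other replication genes, 21.6% held CHR letters and 27.0% held E2F letters. CCAAT was found in 68.3% of the other mitosis and 45.9% of the other replication promoters.

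**Figure D1:**
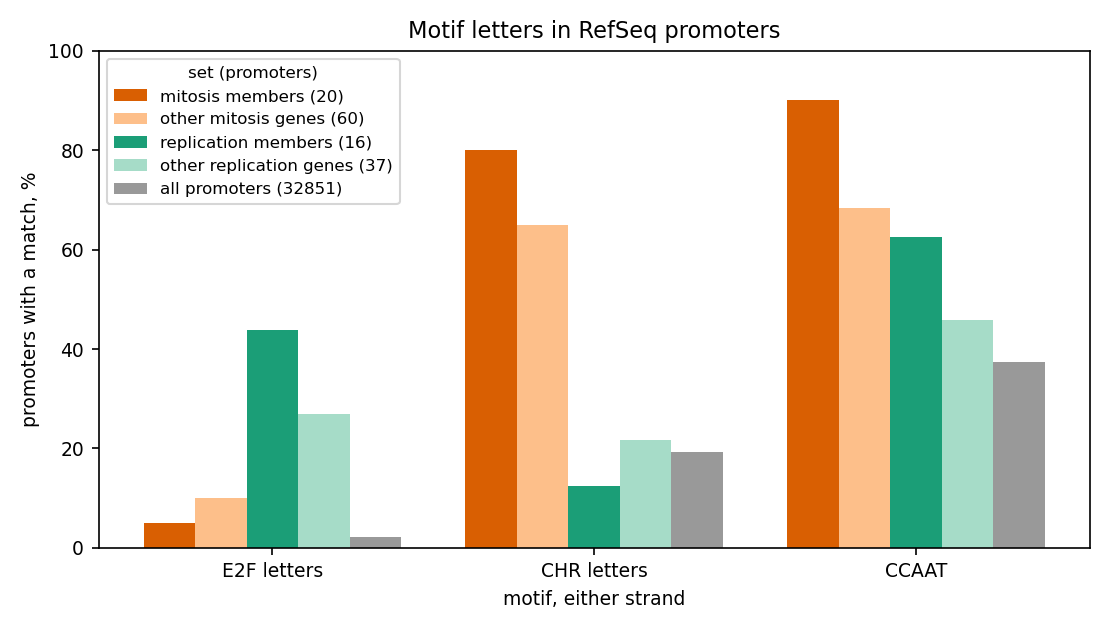
Share of promoters (vertical axis, %) with E2F letters, CHR letters or CCAAT on either strand. Bars stand for mitosis members, other mitosis genes, replication members, other replication genes and all listed promoters. CHR letters were in 80.0% of mitosis and 12.5% of replication members, and E2F letters in 5.0% and 43.8%.

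The median member was more abundant than the median gene. The members' median level was 35.8 FPKM, against 7.08 FPKM over the 14011 genes whose mean reached 1 FPKM, and 38 of the 40 lay above that median, with Ttk and Gins2 below it. The most abundant 10% of these genes included 18 members, and the most abundant 1% included 0. Together the members took 0.913%, 0.879% and 0.946% of the reads of libraries 1, 2 and 3. Mki67 (chromosome 7, mm10, 135689784 to 135716361, minus strand), the proliferation marker Ki-67, was the highest at 183 ± 8.17 FPKM (SD, n = 3), and ranked 212 among the 14011. Gins2 was the lowest at 6.18 ± 0.432 FPKM. In a bulk sample, a lower level from fewer dividing cells and one from less RNA per cell cannot be told apart.

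Summed over members, the 22 mitosis genes held 1031 ± 39.1 FPKM and the 18 replication genes 886 ± 29.5 FPKM (SD, n = 3). The ratio of mitosis to replication was 1.146, 1.171 and 1.174 in libraries 1, 2 and 3, or 1.16 ± 0.0153 (SD, n = 3). The ratio turned on few genes. Without Mki67 it was 0.957, and without the 2 most abundant replication genes, Pcna and Rrm2, it was 1.80. With geometric means in place of sums it was 0.984. The median mitosis member stood at 37.2 FPKM and the median replication member at 33.1 FPKM.

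**Figure D2:**
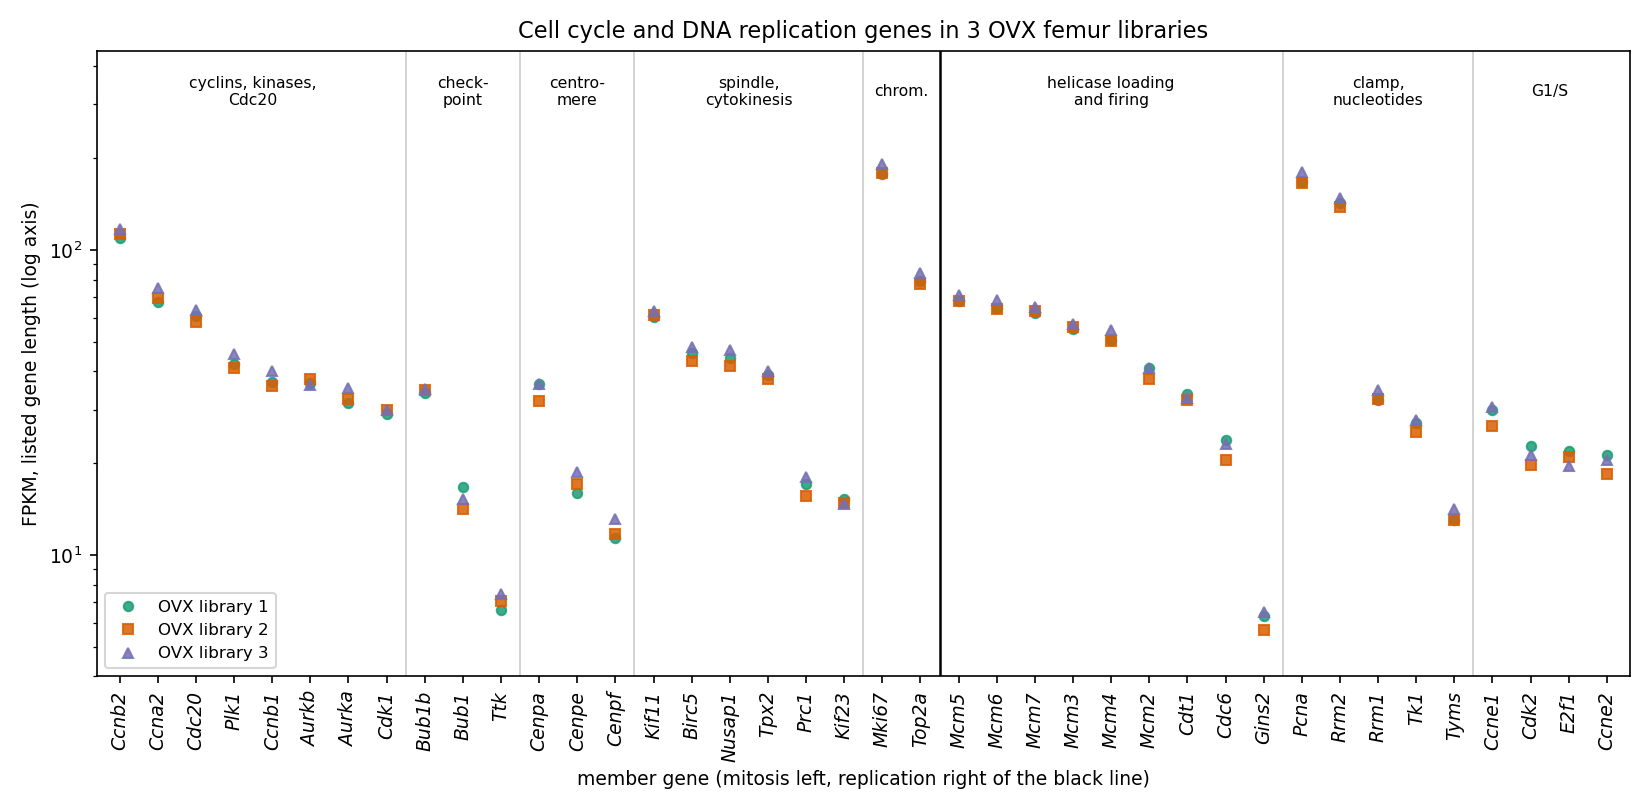
FPKM of each member (log axis) in OVX libraries 1, 2 and 3, with mitosis genes left and replication genes right of the black line, grouped by role. The 3 points of a gene lie close together while genes range from 5.69 FPKM (Gins2, library 2) to 192 FPKM (Mki67, library 3).

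The 3 libraries were compared gene by gene with a chi-square test on the reads behind the FPKM, against the totals behind the FPKM, with Benjamini-Hochberg adjustment over all 14011 genes. A gene was called different between libraries at an adjusted p below 0.05. The test sets single libraries of 1 group against counting noise and says nothing about a treatment. By this test 26 of the 40 members (65.0%) differed between libraries, against 37.4% of all genes tested and 43.7% of the 7510 tested genes whose mean reads lay within the members' range. By class, 15 of 22 mitosis and 11 of 18 replication members differed. The share depended on the libraries. Without library 1, 22 of 40 members (55.0%) differed between the other two, against 24.6% of all genes tested. Without library 2, 13 members (32.5%) differed, against 17.9% of all genes. Without library 3 the order turned, with 9 members (22.5%), against 27.9% of all genes. The differences were small. The highest library exceeded the lowest by 1.03-fold to 1.17-fold, with a median of 1.09-fold, against a median of 1.15-fold over all genes tested.

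In 30 of the 40 members the highest of the 3 values was in library 3. This held for 18 of 22 mitosis and 12 of 18 replication members, whereas 31.9% of all genes tested were highest there. The lowest value was in library 2 for 23 members and in library 1 for 14. The median member lay 0.060 above its own mean in library 3 on the log2 scale, and 0.019 and 0.044 below it in libraries 1 and 2. With FPKM taken as a share of the total left after erythroblast, globin, neutrophil, muscle and cartilage genes were removed, 24 members were highest in library 3, of which 15 were mitosis and 9 replication genes, and 22.7% of all genes were. Erythroblast markers were also mostly highest in library 3, 11 of 15, with sums of 2180, 2297 and 2459 FPKM. Their sum was lowest in library 1, whereas the members' sum, 1897, 1864 and 1994 FPKM, was lowest in library 2. Of the erythroblast markers, 8 were lowest in library 1 and 7 in library 2. B cell precursor markers had 0 of 12 highest and 8 lowest in library 3, with sums of 736, 684 and 664 FPKM. Granulocyte precursor markers summed to 8092, 8354 and 8016 FPKM, with 1 of 11 highest in library 3. They were split, with 6 highest in library 1 and 4 in library 2, and with 6 lowest in library 3 and 4 in library 2. The sum was mostly Ngp and Camp, which were highest in library 2. Elane, at 523, 472 and 510 FPKM, and Mpo, at 252, 212 and 238 FPKM, were lowest there. Megakaryocyte markers, of the cells that shed platelets, had 6 of 7 highest in library 3 and were low in library 2, with sums of 1592, 1058 and 1658 FPKM. Mature neutrophil markers summed to 18690, 20960 and 19260 FPKM, with 2, 6 and 1 of 9 highest in libraries 1, 2 and 3. The part of these cell types in the members' values was not tested.

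**Figure D3:**
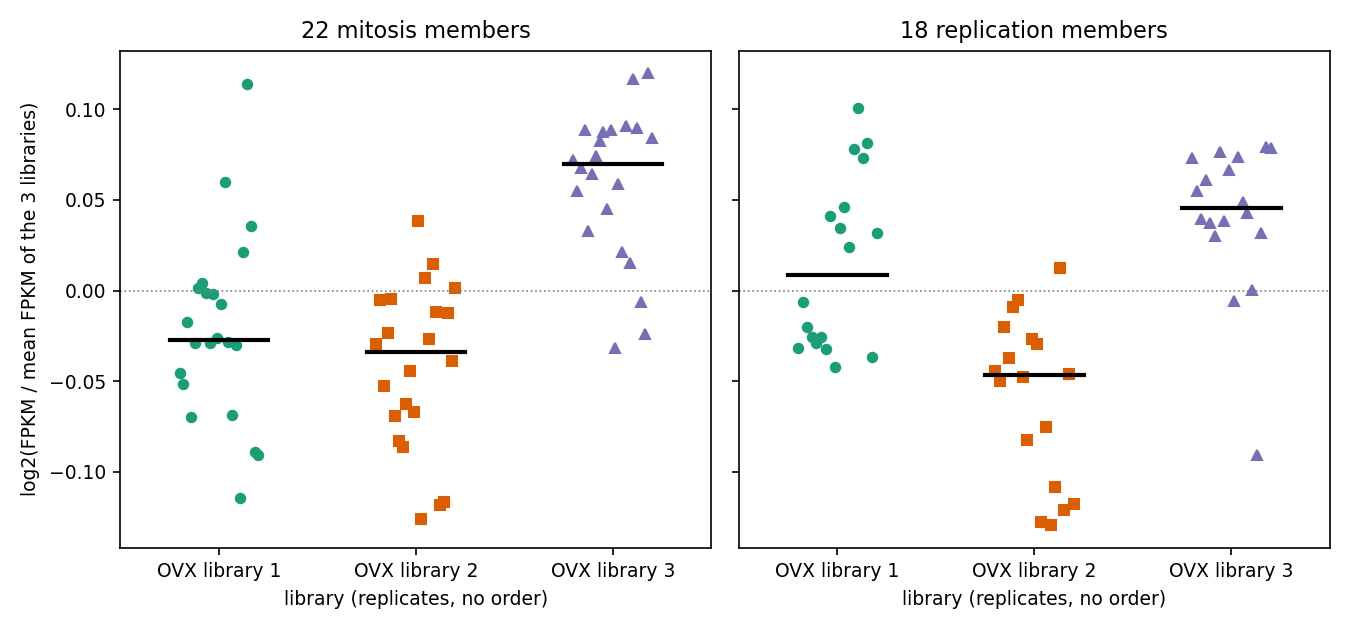
log2 of FPKM in 1 library over the mean of the 3 libraries, for mitosis members (left) and replication members (right). Each point is a gene and black bars are medians, which in library 3 were 0.070 for mitosis and 0.046 for replication members.

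Among the cyclins, kinases and their activator, Ccnb2 was the most abundant. Ccnb2 (chromosome 9, mm10, 70407692 to 70421547, minus strand), a B-type cyclin that activates Cdk1 at the entry into mitosis, had 109, 113 and 118 FPKM in libraries 1, 2 and 3. Ccna2, the cyclin of S and G2 phases, had 67.4, 69.6 and 75.2 FPKM. Ccnb1, the other main mitotic cyclin, had 36.9, 35.9 and 39.97 FPKM. All 3 cyclins were highest in library 3 and differed between libraries, by chi-square with an adjusted p of 0.0483 for Ccnb2, 1.28e-06 for Ccna2 and 0.00108 for Ccnb1. Within a library Ccnb2 was 3.01 ± 0.112 times as high as Ccnb1 and Ccna2 1.88 ± 0.0568 times as high (SD, n = 3). With the length of the main protein-coding transcript in place of the listed gene length, Ccnb2 was 1.78 ± 0.0658 times as high as Ccnb1.

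Cdc20, which activates the anaphase-promoting complex, had 60.9, 58.0 and 63.7 FPKM in libraries 1, 2 and 3. Plk1, the polo-like kinase of mitotic entry and spindle formation, had 42.2, 41.2 and 45.7 FPKM. Aurka, the Aurora kinase of spindle poles, had 31.6, 32.5 and 35.3 FPKM. Each of these was highest in library 3, with a chi-square adjusted p of 0.0469, 0.025 and 0.0269 in that order. The spread was smaller for Aurkb, the Aurora kinase of the chromosomal passenger complex, at 36.7, 37.9 and 36.1 FPKM. Cdk1, the central mitotic kinase, held 29.0, 29.9 and 29.9 FPKM. Neither passed the test, with a chi-square adjusted p of 0.456 for Aurkb and 0.567 for Cdk1. Aurkb was 1.12 ± 0.0811 times as high as Aurka (SD, n = 3).

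The spindle checkpoint delays anaphase until every chromosome is attached. Its kinase Bub1 had 16.7, 14.2 and 15.3 FPKM in libraries 1, 2 and 3 and was called different, with a chi-square adjusted p of 0.00296. Bub1b, which encodes the checkpoint protein BubR1, had 33.9, 34.8 and 35.1 FPKM. Ttk, the kinase Mps1 that starts the signal, had 6.61, 7.05 and 7.46 FPKM and was the lowest mitosis member. Bub1b and Ttk did not pass the test (chi-square adjusted p = 0.581 and 0.211). Bub1 was lowest in library 2 while Bub1b was lowest in library 1, so that the ratio of Bub1b to Bub1 was 2.04, 2.45 and 2.29.

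The centromere genes had the largest median coefficient of variation of the 8 roles, at 7.69% over the 3 libraries. Cenpe, the kinesin that moves chromosomes to the spindle equator, had 15.9, 17.1 and 18.7 FPKM in libraries 1, 2 and 3. Cenpf, a large kinetochore protein, had 11.3, 11.7 and 13.1 FPKM. Cenpa, the histone H3 variant that marks centromeres, had 36.3, 31.9 and 36.2 FPKM. All 3 differed between libraries, with a chi-square adjusted p of 7.81e-07 for Cenpe, 9.72e-08 for Cenpf and 1.4e-07 for Cenpa. They did not share a pattern, since Cenpe and Cenpf were lowest in library 1 and Cenpa was lowest in library 2. Cenpe had the widest range of all 40 members, at 1.17-fold.

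Among spindle and cytokinesis genes, the motor Kif11, which pushes spindle poles apart, was highest by the listed length, at 60.3, 61.3 and 62.9 FPKM. Birc5, which encodes survivin of the chromosomal passenger complex, had 45.9, 43.2 and 48.2 FPKM. Nusap1, a microtubule-bundling protein, had 44.3, 41.8 and 47.0 FPKM. The bundler Prc1, which organizes the midzone between separating chromosomes, was lower. It had 17.2, 15.6 and 17.99 FPKM. Birc5, Nusap1 and Prc1 were lowest in library 2 and highest in library 3 and passed the test, with a chi-square adjusted p of 0.00203, 0.00021 and 3.52e-05 in that order. Kif11, Tpx2 at 38.8, 37.7 and 40.1 FPKM, and Kif23 at 15.3, 14.8 and 14.7 FPKM did not pass it, with a chi-square adjusted p of 0.18, 0.118 and 0.505. Tpx2 activates Aurka on the spindle and Kif23 is the motor of the midzone complex centralspindlin.

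Mki67, whose protein coats mitotic chromosomes, led the chromosome genes at 177, 179 and 192 FPKM in libraries 1, 2 and 3. Top2a, the topoisomerase that untangles sister chromatids, had 79.3, 77.4 and 84.1 FPKM. Both were highest in library 3, with a chi-square adjusted p of 4.59e-26 for Mki67 and 1.77e-09 for Top2a. Mki67 in library 3 rested on 31959 reads, with an exact Poisson 95% interval of 190.02 to 194.24 FPKM for counting error only. Mki67 was 2.28 ± 0.0408 times as high as Top2a (SD, n = 3), a ratio that changes with the gene length used.

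The replicative helicase is built from Mcm2 to Mcm7, which load onto origins together as a ring. Mcm5 (chromosome 8, mm10, 75109569 to 75128439, plus strand) led, by the listed gene length, with 68.3, 68.3 and 71.2 FPKM in libraries 1, 2 and 3. Mcm6 followed with 64.4, 63.8 and 68.3 FPKM, and Mcm7 with 62.2, 63.1 and 65.1 FPKM. The 6 subunits stayed close to one another, the highest being 1.74 ± 0.0745 times the lowest within a library (SD, n = 3). Mcm3 had 55.2, 56.0 and 57.4 FPKM and Mcm4 50.8, 50.3 and 54.8 FPKM. By the listed length Mcm2 was the lowest of them at 41.0, 37.7 and 41.0 FPKM. Mcm2, Mcm4 and Mcm6 differed between libraries, with a chi-square adjusted p of 0.000118, 0.00384 and 0.00335, and all 3 were lowest in library 2. Mcm3, Mcm5 and Mcm7 did not pass the test, with a chi-square adjusted p of 0.38, 0.145 and 0.143.

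The loaders of the helicase were lower than the helicase itself. Cdt1, which brings the Mcm ring to origins, had 33.7, 32.3 and 32.8 FPKM in libraries 1, 2 and 3 and did not pass the test (chi-square adjusted p = 0.535). Its partner Cdc6 had 23.8, 20.6 and 23.2 FPKM and was called different with a chi-square adjusted p of 7.72e-05, with library 2 below the other two. Gins2, a subunit of the GINS complex that activates the ring, had 6.31, 5.69 and 6.53 FPKM (chi-square adjusted p = 0.222). It rested on 447, 393 and 442 reads, the fewest of any member, and its exact Poisson 95% interval in library 2 was 5.15 to 6.29 FPKM. Gins2 also shared 67.3% of its exon bases with Gse1 on the opposite strand, which stood at 13.0 FPKM, and no source used here states whether counting used strand. The level of Gins2 is therefore uncertain.

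Pcna (chromosome 2, mm10, 132249162 to 132253314, minus strand), the sliding clamp of the DNA polymerases, had 167, 166 and 179.8 FPKM in libraries 1, 2 and 3. Rrm2, the regulated subunit of ribonucleotide reductase that makes deoxynucleotides, had 142, 138 and 149 FPKM. Its partner Rrm1 had 32.2, 32.6 and 34.8 FPKM, so that Rrm2 was 4.31 ± 0.0951 times as high (SD, n = 3). Thymidine kinase Tk1 had 27.2, 25.4 and 27.7 FPKM. Tyms, the thymidylate synthase, had 13.1, 13.0 and 14.2 FPKM. All 5 genes of nucleotide supply and the clamp were highest in library 3. The chi-square adjusted p was 6.41e-06 for Pcna, 0.000752 for Rrm2, 0.000173 for Rrm1 and 0.027 for Tk1, while Tyms did not pass at 0.088.

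The G1/S regulators had a different order of libraries. Ccne1, the E-type cyclin that starts S phase with Cdk2, had 30.0, 26.6 and 30.5 FPKM in libraries 1, 2 and 3. Ccne2, its close relative, had 21.2, 18.5 and 20.5 FPKM. Cdk2 itself had 22.9, 19.8 and 21.3 FPKM. These 3 were lowest in library 2 and differed between libraries, with a chi-square adjusted p of 0.00355 for Ccne1, 0.0082 for Ccne2 and 5e-05 for Cdk2. E2f1, the activator E2F that drives many replication genes, had 21.9, 20.97 and 19.5 FPKM and did not pass (chi-square adjusted p = 0.069). Among these 4, Ccne1 alone was highest in library 3, and their sum was 95.9, 85.8 and 91.9 FPKM. Ccne1 was 1.45 ± 0.0393 times as high as Ccne2, and Cdk1 1.39 ± 0.122 times as high as Cdk2 (SD, n = 3).

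By median spread between libraries, the members were close to other genes with similar reads. The members' coefficient of variation (CV, the SD as a percentage of the mean) had a median of 4.79% and ranged from 1.75% to 8.06%. Over all genes tested the median CV was 7.49%, and over those within the members' range of reads it was 5.12%. Counting alone gives a median CV of 1.98% at the members' reads, and the part beyond counting had a median of 4.41%. When the 40 members were ordered by mean level, 13 of the 39 neighbouring pairs had values that did not overlap, and 26 pairs overlapped. Among replication members alone 10 of 17 neighbouring pairs did not overlap, and among mitosis members 10 of 21.

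**Figure D4:**
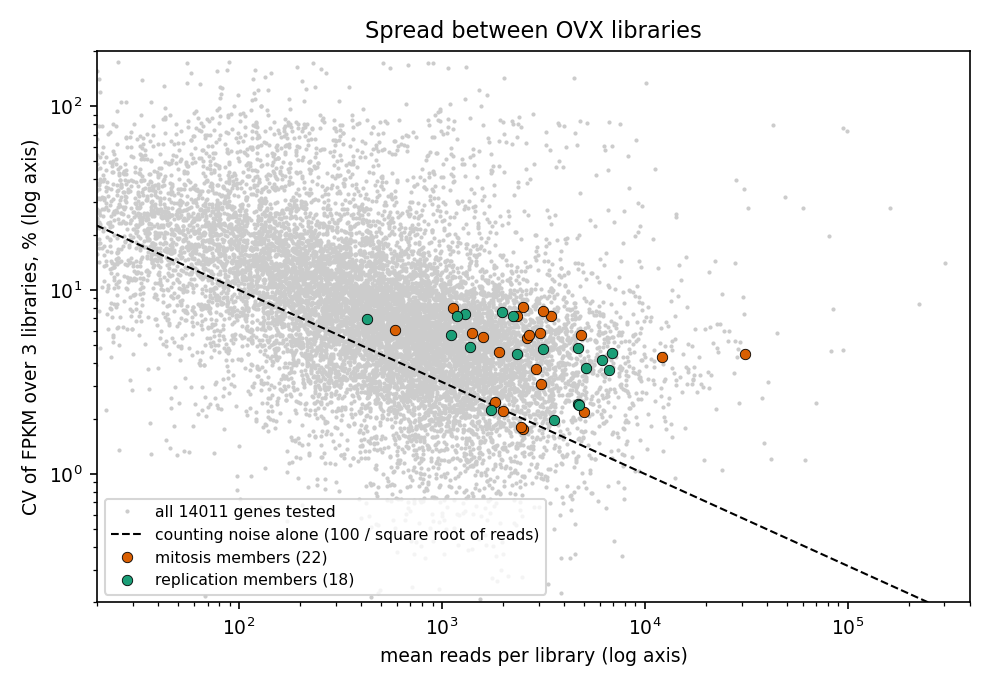
CV over the 3 OVX libraries (%, log axis) against mean reads per library (log axis), for mitosis members, replication members and all 14011 genes tested. The dashed line is the CV from counting alone, and members lie between 1.75% and 8.06%.

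The order of members also depended on the length used for each gene, and 7 members moved by 10 or more places with another length. The authors' listed length equalled the bases covered by any annotated exon in GENCODE release M21 for 39 of the 40 members, Kif11 being the exception. Set against the APPRIS principal transcript, the main protein-coding form, the listed length was 1.37 times as long for the median member and 1.31 times for the median of 11753 genes tested. For 9 members it was at least 2 times as long, and 19.2% of the 11753 genes reached this. Cenpa was listed with 5860 bases against 1466 in its principal transcript. Its level was 34.8 ± 2.52 FPKM with the first and 139 ± 10.1 with the second (SD, n = 3). The second value keeps reads from every listed exon and assumes that all came from the principal transcript, so it is an upper limit. The other values and ratios by principal transcript rest on the same assumption. By the principal transcript Birc5 stood at 164 FPKM, Tk1 at 96.6 FPKM and Pcna at 270.2 FPKM, ahead of Mki67 at 183 FPKM. The Mcm order turned as well, with Mcm6 highest at 105 FPKM and Mcm4 lowest at 51.95 FPKM, while Mcm2 at 82.3 FPKM lay above Mcm5 at 81.8 FPKM. Birc5 passed Kif11, which stood at 61.5 FPKM. The median mitosis member was then below the median replication member, at 50.8 against 64.4 FPKM. With this length the ratio of mitosis to replication was 1.07 ± 0.0103, that of Rrm2 to Rrm1 1.98 ± 0.0436 and that of Mki67 to Top2a 1.32 ± 0.0236. Cdk1 over Cdk2 changed sides of 1, at 0.566 ± 0.0496 (SD, n = 3 for each ratio). The spread between libraries was not affected, since 1 length applies to a gene in every library.

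**Figure D5:**
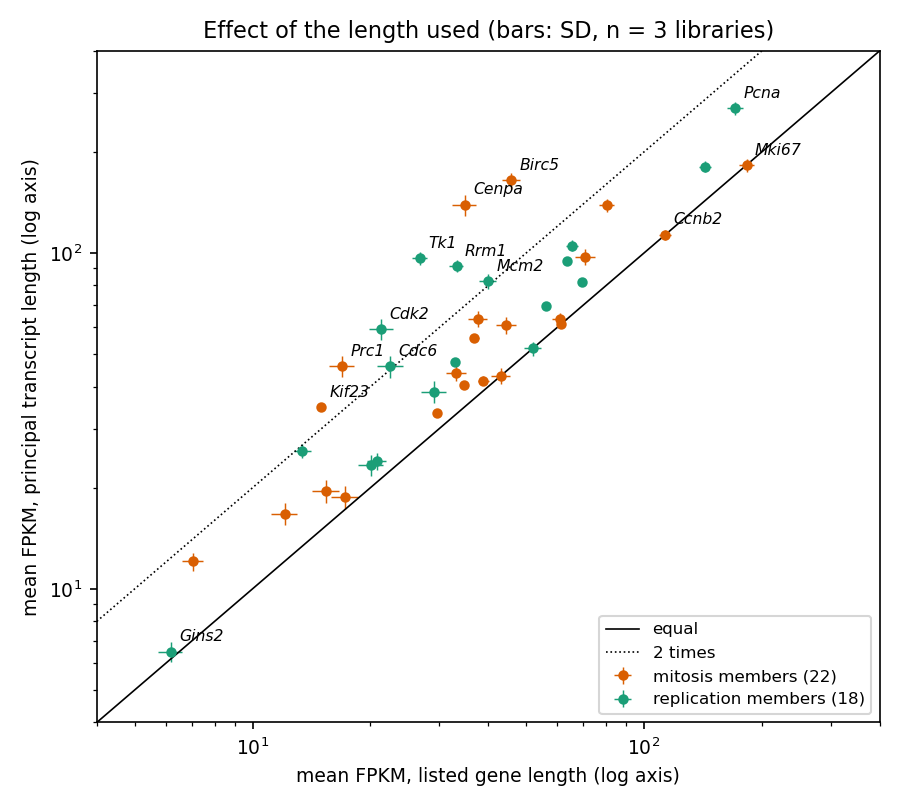
Mean FPKM by principal transcript length (vertical, log axis) against mean FPKM by listed length (horizontal, log axis), with SD over 3 OVX libraries as bars. The solid line is equality and the dotted line 2 times, and Cenpa, Tk1 and Birc5 lie farthest above equality.

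Overlap with another gene exceeded 10% of exon bases in 3 members beside Gins2. Ccne2 shared 17.4% of its exon bases with Ints8, Ccna2 12.5% with Exosc9 and Prc1 11.1% with Rccd1, each on the opposite strand and each lower than the member. Of the copies, Pcna-ps2 stood at 3.32 FPKM, Ccnb1-ps at 1.77 and Ccnb2-ps at 1.30, and Pcna-ps1 and Tyms-ps were listed at 0.

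The other genes of the same steps were examined as lists. Of 61 other mitosis genes tested, 30 (49.2%) differed between libraries, against 37.4% of all genes tested. In library 3, 50 of them were highest, against 31.9% of all genes. Of 39 other replication genes tested, 12 (30.8%) differed, below the share of all genes, and 23 were highest in library 3. Their sums were 1507, 1483 and 1588 FPKM for mitosis and 769, 756 and 795 FPKM for replication in libraries 1, 2 and 3. The 8 other mitosis genes with the smallest adjusted p were Ncapd2, Aspm, Foxm1, Ckap2l, Smc2, Kif14, Smc4 and Knl1. Ncapd2, a condensin subunit, had 56.1, 53.2 and 59.9 FPKM (chi-square adjusted p = 9.17e-09). Its partners Smc2 and Smc4, the condensin ATPases, had 40.3, 40.1 and 44.6 FPKM and 72.9, 75.1 and 79.3 FPKM. Foxm1, a transcription factor of mitosis genes, had 20.8, 17.7 and 21.2 FPKM (chi-square adjusted p = 1.41e-07). Among the spindle genes, Aspm had 13.3, 11.99 and 14.2 FPKM and Ckap2l 28.4, 27.5 and 33.2 FPKM. The kinesin Kif14 had 7.14, 6.21 and 7.66 FPKM, and the kinetochore scaffold Knl1 15.96, 15.7 and 17.8 FPKM. All 8 were highest in library 3.

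The corresponding replication genes were Wdhd1, Pold1, Prim2, Rfc2, Rpa1, Fen1, Lig1 and Chaf1a. Wdhd1, an adaptor of the replication fork, had 15.4, 13.5 and 15.8 FPKM, Pold1, a polymerase subunit, 30.8, 26.9 and 28.8 FPKM, and Prim2 of the primase 7.43, 6.23 and 7.93 FPKM. The clamp loader gene Rfc2 had 19.1, 16.8 and 18.8 FPKM and Rpa1, which coats single-stranded DNA, 26.8, 27.7 and 29.9 FPKM. These genes split into those lowest in library 2 (Wdhd1, Pold1, Prim2, Rfc2 and Chaf1a) and those lowest in library 1 (Rpa1, Fen1 and Lig1). The ligase Lig1 had 40.3, 40.5 and 43.6 FPKM and the chromatin assembly factor Chaf1a 8.05, 7.72 and 8.79 FPKM. Fen1, the flap endonuclease of Okazaki fragments, had 3.92, 4.61 and 5.77 FPKM, with a chi-square adjusted p of 0.00254 and a range of 1.47-fold, wider than that of any member.

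Of 20 G1 cyclins, pocket proteins and other E2F genes tested, 8 differed, a share close to the 37.4% of all genes tested. The 8 were Tfdp2, Rb1, Ccnd1, Ccnd3, Ccnd2, Rbl1, E2f8 and Myc. Ccnd1, a cyclin that links growth signals to the cell cycle, had 3.58, 5.65 and 4.79 FPKM in libraries 1, 2 and 3 (chi-square adjusted p = 7.92e-08). Rb1, the retinoblastoma protein that restrains E2F, had 28.7, 25.2 and 29.5 FPKM (chi-square adjusted p = 6.51e-08). Tfdp2, a partner of E2F factors, had 21.8, 22.5 and 25.2 FPKM, and the repressor E2f8 30.8, 28.3 and 30.5 FPKM. The other D-type cyclins differed from Ccnd1 in order, with Ccnd3 at 56.4, 53.2 and 57.7 FPKM and Ccnd2 at 7.90, 8.83 and 9.24 FPKM. Rbl1, a relative of Rb1, had 20.8, 18.6 and 19.96 FPKM, and Myc, the growth-promoting transcription factor, 23.4, 20.4 and 22.8 FPKM. Except for Ccnd1, Ccnd2 and Tfdp2, these 8 genes were lowest in library 2.

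Of 17 inhibitors and p53 arrest genes tested, 5 (29.4%) differed, below the 37.4% of all genes tested. The 5 were Cdkn1a, Fzr1, Btg2, Sesn1 and Ccng2. Cdkn1a, which encodes the p53-induced inhibitor p21, had 5.36, 9.71 and 6.52 FPKM, with a chi-square adjusted p of 6.57e-18. Cdkn1a was highest in library 2, where 23 of the 40 members were lowest and where the osteoblast and cartilage sums were highest, and the part of those tissues was not tested. The arrest genes Btg2, Sesn1 and Ccng2 were instead highest in library 1, at 99.3, 91.8 and 95.6 FPKM, 21.8, 19.01 and 19.8 FPKM, and 20.4, 19.1 and 18.5 FPKM. Fzr1, which encodes the anaphase-promoting complex activator Cdh1, had 47.1, 49.3 and 53.1 FPKM. Trp53, which encodes p53, held 22.7, 23.2 and 23.2 FPKM and did not pass the test (chi-square adjusted p = 0.864).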

How the data were processed

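Femoral RNA was sequenced, and for each library the authors deposited an FPKM value per gene beside the gene's length in bases. Per the submitters' processing notes, the software comprised featureCounts, STAR, Trimmomatic and FastQC, with genome build mm10. Versions, settings, strand use and annotation were not given in the sources used here. DESeq2 and limma, which the authors name in the design text, were not rerun. Columns were tied to samples by library name, which worked for OVX replicates 1, 2 and 3. The remaining 3 columns carried no labelled name and were not used here, so the comparison of Zin with OVX that had been planned (limma on log2 values) was not run.

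Multiplying the deposited FPKM by length gave whole read counts for 100% of values, within 0.01 read. The totals implied by the FPKM were 17279919, 16845977 and 16533661 reads, slightly different from the reads listed. Each gene averaging 1 FPKM or more was tested by chi-square on reads against these totals, with Benjamini-Hochberg adjustment over all such genes. The test was checked on simulated data with counting noise only and some genes raised in 1 library. That check covers neither spread beyond counting nor differences as small as those of the members. Intervals are at 95% and cover counting error only, since reads are not independent molecules. The design text calls the samples biological replicates, but no label names separate animals. The SD therefore describes variation among single libraries, and that variation could be technical. The chi-square p-values compare such variation with counting noise, so they also depend on the number of reads and are no measure of its size.

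Members and lists were chosen with earlier results of these data known. Values are given in full for the 2 most abundant members of each of 8 roles, the most variable one and those called, and for the other members more briefly. From the 4 other pathway lists, up to 8 called genes by adjusted p are named, and Cdkn1a and Trp53 in any case. Alternatives were other scalings, filters and lengths, and leaving out each library. GENCODE release M21 gave transcript lengths and RefSeq gave promoters. Software was matplotlib 3.10.9, scipy 1.17.1, pandas 2.3.3, numpy 2.4.6 and Python 3.11.15.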

Additional observations from a re-analysis of the deposited data

How the results depend on the processing

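The planned comparison of Zin with OVX and all its alternatives were not run, since no column could be tied to a Zin sample. No paired analysis was possible because only 1 group was analysed. The alternatives to the comparison of libraries were chosen after the data had been seen. Leaving out each library in turn gave 2501 to 3913 called genes against 5234 with all 3, and 9 to 22 called members against 26. The members' share was above that of all genes without library 1 (55.0% against 24.6%) and library 2 (32.5% against 17.9%), and below it without library 3 (22.5% against 27.9%). The range was 4 to 12 mitosis members against 15, and 5 to 10 replication members against 11. Such counts rest on fewer libraries. Median-of-ratios scaling gave 26 called members, upper-quartile scaling 31, the share of the remaining FPKM 19, reads listed as the total 25, no filter 24 and a mean of at least 5 FPKM 26, each within 1.5 times the number reported. Members highest in library 3 numbered 24 to 32 over the scalings. The ratio of mitosis to replication, 1.164, was 1.159 to 1.172 with each library left out, 1.068 by principal transcript, 0.9839 by geometric means, 0.9574 without Mki67 and 1.802 without Pcna and Rrm2. Depth limits Gins2 and Ttk most, with the fewest reads, and 3 libraries of 1 group allow no statement about treatment.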
